A study of Homo sapiens with 3 samples.

Results

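LINC genes are long intergenic noncoding RNA genes that carry a systematic number because no function or neighbour had given them another name. Of the 2158 genes whose name is LINC followed by digits alone, 130 had at least 50 recovered fragments in at least 1 library and were selected on that value, among 61533 genes in the tables. A recovered fragment is the deposited value multiplied by exon length and divided by the worth of 1 fragment in that library. These fragment values chose the genes, so the levels that admitted a gene are given as a description. Just inside it lay LINC01619, LINC01277 and LINC01786 with 50, 51 and 52 fragments in their highest library, and just outside it LINC01772 and LINC00997 with 49 each and LINC02649 with 47. Below it were 2028 LINC genes, of which 653 had at least 1 fragment and 1375 had 0 in all 3 libraries.

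The libraries came from Hep3B, an established human hepatoma cell line of wild-type genotype, with 1 library per condition. The conditions were hypoxia with oxamate sodium (1% oxygen, 48 hours in the design text), hypoxia (1% oxygen) and normoxia (20% oxygen). Oxamate inhibits lactate dehydrogenase, the enzyme that makes lactate from pyruvate, and the series title names lactate and histone lactylation as its subject. RNA was enriched on oligo-dT beads, so transcripts without a poly(A) tail are not represented, and whether the libraries keep strand is not stated.

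Long intergenic RNAs are transcribed by RNA polymerase II, and are often spliced and polyadenylated like messenger RNAs, but encode no recognised protein. Many stay in the nucleus and are short-lived, because the RNA exosome and its adaptor complexes degrade them, and their levels are usually low and tied to particular tissues. A subset acts on nearby genes or as scaffolds for chromatin proteins, and low oxygen is known to change many of them through the hypoxia-inducible factors (HIF) and through chromatin.

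The libraries held 24826365 fragments in hypoxia with oxamate, 26309340 in hypoxia and 27412147 in normoxia, and 27505, 27462 and 24566 genes had at least 1 fragment in that order. With a single library per condition nothing measures the spread between cultures, so ratios carry a 95% exact conditional binomial interval that covers counting error only, and no p-value is given. Higher and lower mean a scaled ratio of 2-fold or more, with 50 or more fragments in the library on the higher side. The hepatocyte markers summed to 13400, 22810 and 29940 CPM (fragments relative to the scaled library total) in hypoxia with oxamate, hypoxia and normoxia, and all 10, with AFP and ALB among them, were detected. ALB was the largest part, with 6809, 8887 and 18300 CPM in the same order. TF was 3.38-fold higher in hypoxia than in normoxia (3.35 to 3.42) and AHSG 1.38-fold higher (1.36 to 1.39), while the others were lower. Of the 8 blood markers CD3E, HBA1 and HBB had 0 fragments throughout, the sum ran from 33.0 to 61.1 CPM, LYZ made up most of it, and CD14 had 17, 22 and 140 fragments in the same order. The 6 fibroblast markers summed to 29.8 to 35.7 CPM. DCN and ACTA2 were at 0 and COL1A2 at 7 fragments or fewer, while LUM had 580, 412 and 397 fragments, PDGFRB 110, 438 and 315, and COL1A1 51, 130 and 76, the last 2 at least 2-fold lower with oxamate than in hypoxia. The 5 endothelial markers summed to 20.1, 8.38 and 1.35 CPM in hypoxia with oxamate, hypoxia and normoxia, nearly all of it PECAM1, while KDR had 0 fragments and VWF, TEK and CDH5 had at most 3. Whether the levels of these markers have a part in any LINC result was not tested.

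Together the 2158 LINC genes made up 0.127% of the fragments in hypoxia with oxamate, 0.128% in hypoxia and 0.0839% in normoxia. This was 31461, 33676 and 22999 fragments in the same order, or 1258, 1217 and 889 CPM after scaling. More LINC genes were seen in both low-oxygen libraries, with 609 detected in hypoxia with oxamate, 603 in hypoxia and 498 in normoxia, although the normoxia library was the deepest. This was not particular to LINC genes. Over all genes 27505, 27462 and 24566 were detected in the same order, and 5353, 5413 and 4546 of the other long noncoding genes. The 130 genes held 1090, 1063 and 780 CPM of these sums. The LINC genes below the threshold held 167, 154 and 109 CPM, and this set is defined by the same fragment values. Other long noncoding genes summed to 11010, 9582 and 7423 CPM, so both low-oxygen libraries stood above normoxia for them too. Bulk RNA cannot tell more RNA per cell from more cells that make it.

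Most of the 130 genes were weakly expressed. The median over genes of the mean FPKM (fragments per exon length and scaled library size) was 0.851, with a range of 0.149 to 20.2 and 56 genes above 1. The median was 6.04 over the 12041 protein-coding genes that reached 50 fragments. Fewer than 200 fragments were found in every library for 83 of the genes, and 6 reached 1000 in some library. At least 50 fragments were present in all 3 libraries for 65 genes, in 2 libraries for 34 and in a single library for 31. Of these 31, 15 reached 50 only in hypoxia with oxamate, 10 only in hypoxia and 6 only in normoxia, which is 11.5%, 7.69% and 4.62% of the 130 genes. Over all 13969 genes that reached 50 fragments, mostly more abundant, these shares were 2.97%, 2.66% and 1.65%. A gene that entered through its highest library alone had to differ between libraries, and it is counted below in the same way as every other gene in the tables. The scaled level was highest in hypoxia with oxamate for 56 genes, in hypoxia for 50 and in normoxia for 24, or 43.1%, 38.5% and 18.5% of them, where the shares over the 13969 genes were 33.5%, 20.2% and 46.3%. These are the values that chose the genes, so nothing is read from the difference.

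A few genes took much of the signal, since the 10 genes with the most fragments in a library held 41.4% of the 130 genes' fragments in hypoxia with oxamate, 44.0% in hypoxia and 45.5% in normoxia. LINC00261, on chromosome 20 (22547671 to 22578642, minus strand, hg38), had the highest mean level. It is known from differentiating endoderm, where it is made beside FOXA2, a pioneer transcription factor of endoderm and liver. LINC00261 had 2165 fragments (15.4 FPKM) in hypoxia with oxamate, 2896 (18.7 FPKM) in hypoxia and 3771 (26.4 FPKM) in normoxia. It was thus lower in each low-oxygen library than in normoxia, by 1.69-fold with oxamate (interval 1.60 to 1.78) and by 1.39-fold in hypoxia (1.33 to 1.46), and neither reached 2-fold. It begins 2.36 kb past the end of FOXA2 on the same strand, and FOXA2 had 2075 fragments in hypoxia with oxamate, 1576 in hypoxia and 1769 in normoxia. FOXA2 was therefore 1.46-fold higher with oxamate than in hypoxia (1.36 to 1.56), where LINC00261 was 1.21-fold lower (1.14 to 1.28). Of the exon bases of LINC00261, 86.1% also belong to another annotated gene, so its fragments may have been divided or dropped in counting.

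LINC00674, on chromosome 17 (68101874 to 68161227, plus strand), had the second highest mean level and a different order. It had 1593 fragments (30.6 FPKM) in hypoxia with oxamate, 748 (13.1 FPKM) in hypoxia and 315 (5.94 FPKM) in normoxia. Oxamate was the highest of the 3 libraries and normoxia the lowest, with 2.36-fold more in oxamate than in hypoxia (2.16 to 2.57) and 2.22-fold more in hypoxia than in normoxia (1.94 to 2.54). GENCODE 29 types this gene as a transcribed pseudogene. In its best-matching transcript, 50% of the bases match SMURF2 at 95% identity or more, so fragments of SMURF2 could have been assigned to it. LINC02532 on chromosome 6 reached 6.54 FPKM in hypoxia, against 3.35 in hypoxia with oxamate and 1.91 in normoxia.

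**Figure D1:**
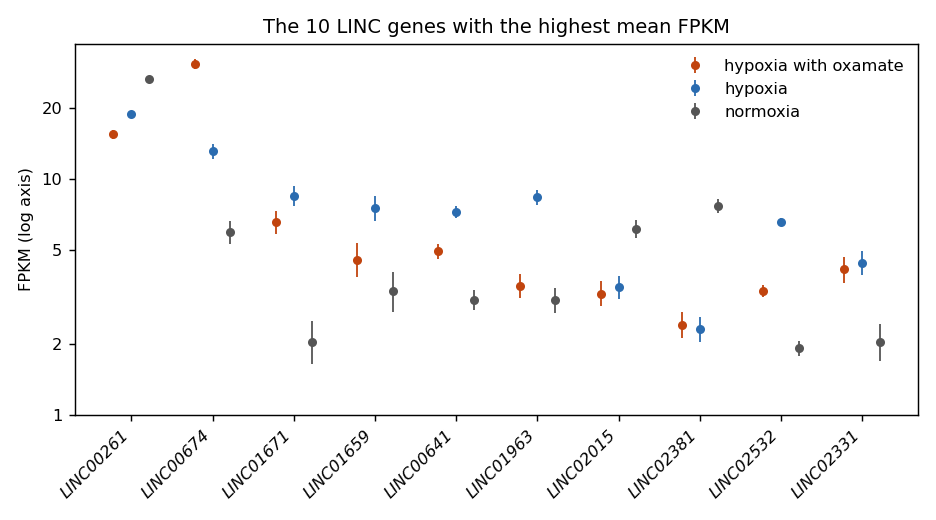
Deposited FPKM on a log axis for the 10 LINC genes with the highest mean over the 3 libraries; points are single libraries, in the order hypoxia with oxamate, hypoxia and normoxia, and bars are exact Poisson 95% intervals for counting error only. LINC00261, LINC02015 and LINC02381 were highest in normoxia, LINC00674 in hypoxia with oxamate, and the other 6 in hypoxia.

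By annotation the 130 genes are mixed. GENCODE 29 types 97 as lincRNA, 14 as processed transcripts, 7 as pseudogenes, 6 as antisense and 3 as another type, and it types LINC00672 and LINC02693 as protein-coding. LINC02348 is not in that release. The genes lie on 22 chromosomes, with 20 on chromosome 1, 10 on chromosome 17 and 7 on chromosome 21. Their summed exon length had a median of 4490 bases (371 to 33198), against 1966 for all LINC genes and 5415 for protein-coding genes, and longer exons give more fragments at the same FPKM. No exon base was shared with another annotated gene in 83 of them. In 16 genes at least 50% of the best-matching transcript matched another gene at 95% identity or more, and their counts are uncertain.

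Hypoxia was compared with normoxia to ask which of these RNAs differ at low oxygen. In hypoxia against normoxia, 115 of the 130 genes had at least 50 fragments in either library, and the other 15 reached 50 only with oxamate. Of the 115, 46 were at least 2-fold higher in hypoxia, which is 40.0%, where 10.8% of the 13554 genes measured in the whole table were higher. Only 7 were at least 2-fold lower, or 6.09%, where 8.07% of all measured genes were lower, and 62 were neither. The median log2 ratio was 0.76 over the LINC genes and -0.11 over all measured genes. When the whole interval had to lie past 2-fold, 23 LINC genes were higher and 2 lower, against 6.96% and 4.91% of all measured genes.

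The highest ratio of hypoxia over normoxia was that of LINC02348 (ENSG00000286733_1), on chromosome 15 (101602786 to 101614531, minus strand). It had 334 fragments in hypoxia with oxamate, 524 in hypoxia and 10 in normoxia. Both low-oxygen libraries thus stood far above normoxia, by 49.0-fold in hypoxia (26.4 to 103) and 34.5-fold with oxamate (18.5 to 72.7). It begins 6.91 kb past the end of TM2D3 on the same strand, and TM2D3 differed by 1.09-fold between hypoxia and normoxia (1.00 to 1.18). TARS3, 39.1 kb away, differed by 1.04-fold (0.927 to 1.18). PCSK6, which encodes a proprotein convertase and lies farther off at 77.6 kb, had 5069 fragments in hypoxia with oxamate, 6725 in hypoxia and 2143 in normoxia. It was 2.93-fold higher in hypoxia (2.79 to 3.08), and was picked after its values were seen.

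LINC02428 on chromosome 4 had 136 fragments in hypoxia with oxamate, 52 in hypoxia and 1 in normoxia. With a single normoxia fragment its ratio of 48.6 in hypoxia over normoxia has an interval of 8.35 to 1956. LINC02280 on chromosome 14 had 92 fragments in hypoxia with oxamate, 126 in hypoxia and 8 in normoxia, and was 14.7-fold higher in hypoxia (7.25 to 34.8). Both genes had few fragments in normoxia and many more in the other 2 libraries. ADSS1, the muscle-type adenylosuccinate synthase gene 58.7 kb from LINC02280, was 5.64-fold higher in hypoxia (4.53 to 7.08), and INF2, the nearest gene at 15.6 kb, was 1.495-fold higher (1.44 to 1.56).

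LINC01151 on chromosome 8 had 59 fragments in hypoxia with oxamate, 61 in hypoxia and 4 in normoxia, a ratio of 14.2 in hypoxia over normoxia (5.29 to 54.0). ZHX2, a zinc-finger homeobox gene whose mouse counterpart represses the alpha-fetoprotein gene in liver, lies 47.9 kb from it on the opposite strand. ZHX2 had 5401 fragments in hypoxia with oxamate, 6759 in hypoxia and 1621 in normoxia and was 3.90-fold higher in hypoxia (3.69 to 4.12), so both genes of this locus were higher at low oxygen. LINC02204 on chromosome 15 had 46, 66 and 6 fragments in hypoxia with oxamate, hypoxia and normoxia, a ratio of 10.3 in hypoxia over normoxia (4.48 to 29.02). Its neighbour UACA, 67.9 kb away, was 2.39-fold higher (2.24 to 2.56). These neighbours were picked out of those within 100 kb after their values were seen.

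The more abundant genes had narrower intervals. LINC02532 had 1182 fragments in hypoxia with oxamate, 2538 in hypoxia and 686 in normoxia. It was 3.46-fold higher in hypoxia than in normoxia (3.18 to 3.77) and, with oxamate, 1.94-fold lower than in hypoxia (1.81 to 2.08), just short of 2-fold. LINC01145 was 4.29-fold higher in hypoxia (3.59 to 5.16) with 548, 684 and 149 fragments in hypoxia with oxamate, hypoxia and normoxia. Its best-matching transcript matches LINC02591 over its whole length at 95% identity or more, so the division of fragments between these genes is uncertain. LINC01671 on chromosome 21, with 293, 418 and 93 fragments in the same order, was 4.20-fold higher (3.35 to 5.32). LINC01503, reported at raised levels in several carcinomas, had 96, 145 and 28 fragments and was 4.84-fold higher (3.21 to 7.54). LINC00672, which lies 3.40 kb past the end of LASP1, had 119, 193 and 32 fragments and was 5.64-fold higher (3.86 to 8.47), whereas LASP1 differed by 1.02-fold. All 5 were lower with oxamate than in hypoxia and above normoxia in both low-oxygen libraries.

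The 7 genes at least 2-fold lower in hypoxia were LINC02381, LINC02693, LINC00665, LINC02038, LINC02600, LINC00888 and LINC01003. LINC02381, on chromosome 12 (54126053 to 54147485, plus strand), was the most abundant of them with 262 fragments in hypoxia with oxamate, 276 in hypoxia and 847 in normoxia. It was 3.28-fold lower in hypoxia (2.86 to 3.77) and 3.13-fold lower with oxamate (2.72 to 3.60) than in normoxia, and the low-oxygen libraries differed by 1.05-fold. The gene overlaps SMUG1, a uracil-DNA glycosylase gene on the opposite strand that differed by 1.07-fold between hypoxia and normoxia, without sharing exon bases. LINC02693 had 283, 213 and 495 fragments in hypoxia with oxamate, hypoxia and normoxia and was 2.49-fold lower in hypoxia (2.11 to 2.93). LINC00665, reported in liver and other cancers, had 113, 140 and 316 fragments and was 2.42-fold lower (1.97 to 2.97). In its best-matching transcript, 55.8% of the bases match LINC01535.

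LINC02600 had 32 fragments in hypoxia with oxamate, 23 in hypoxia and 62 in normoxia, and was 2.88-fold lower in hypoxia (1.76 to 4.88). It starts within 2.96 kb of ADRA2C, the alpha-2C adrenergic receptor gene, and runs in the opposite direction. ADRA2C had 154 fragments in hypoxia with oxamate, 255 in hypoxia and 675 in normoxia and was 2.83-fold lower in hypoxia (2.45 to 3.28), so this divergent pair was lower together. LINC00888 was 2.29-fold lower in hypoxia than in normoxia (1.66 to 3.19). It was 2.25-fold higher with oxamate than in hypoxia (1.63 to 3.15), and so passed 2-fold in both steps. Its 116 fragments with oxamate and 122 in normoxia stood above 57 in hypoxia. LINC02693 and LINC02600 also stood higher with oxamate than in hypoxia, by less than 2-fold.

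**Figure D2:**
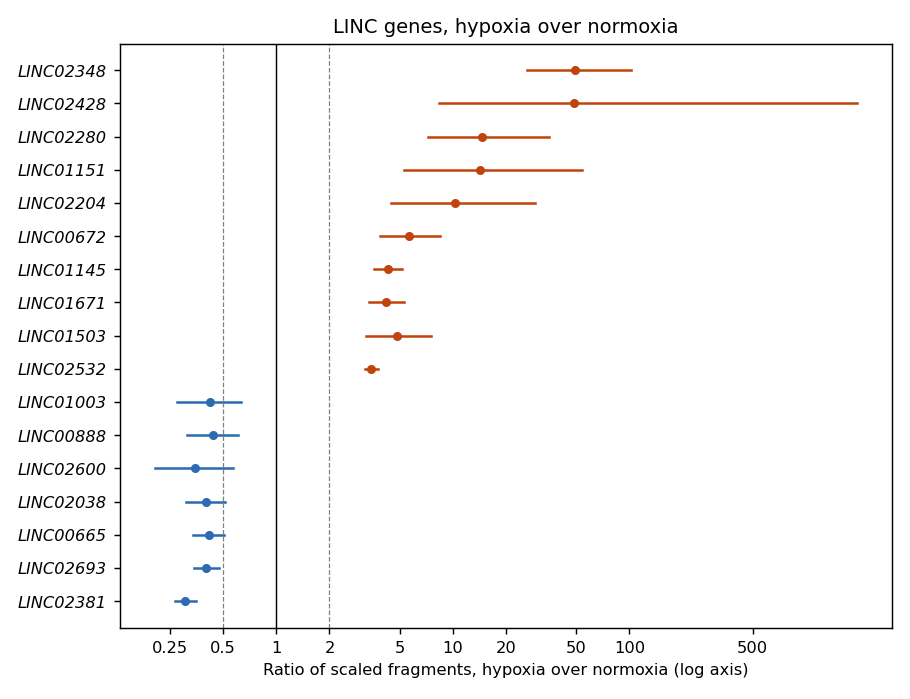
Ratio of scaled fragments in hypoxia over normoxia on a log axis, for 10 LINC genes that were at least 2-fold higher and for all 7 that were at least 2-fold lower. The 10 are the first when ranked by the interval bound nearest to 1. Bars are 95% exact intervals for counting error only, and dashed lines mark 2-fold; the intervals of LINC02348 and of the 9 genes under it lie above 2-fold, and those of LINC02381 and LINC02693 lie below the lower line.

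Low-level genes pass a 2-fold rule more easily, so the shares were set beside those of other gene types at the same fragment level. Among genes with at least 50 and under 200 fragments in the higher library, 40.8% of 76 LINC genes were at least 2-fold higher in hypoxia than in normoxia. The share was 30.5% for 632 other long noncoding genes, 27.3% for 300 pseudogenes and 21.96% for 1694 protein-coding genes. At 200 or more and under 1000 fragments it was 34.3% for 35 LINC genes, 29.7% for 209 other long noncoding genes, 16.3% for 172 pseudogenes and 6.38% for 4029 protein-coding genes. LINC genes had the highest share in both bands and other long noncoding genes stood next to them. The share at least 2-fold lower was 3.95% for LINC genes, 5.06% for other long noncoding genes and 11.04% for protein-coding genes in the first band, and 11.4%, 4.31% and 9.38% in the second, where 4 LINC genes were lower. Between hypoxia with oxamate and hypoxia the same order held for the higher genes of both bands, at lower shares, except that pseudogenes and protein-coding genes were nearly equal in the lower band.

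**Figure D3:**
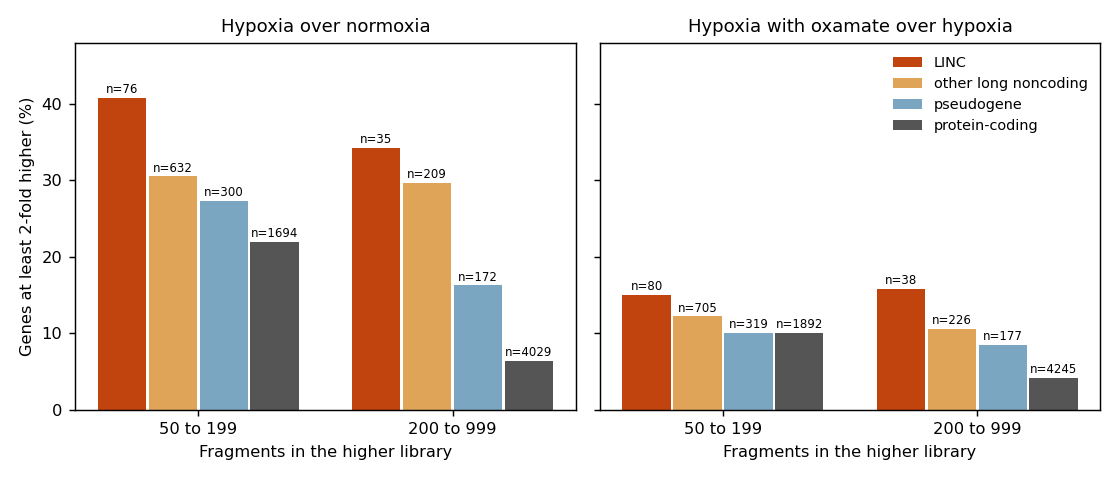
Share of measured genes, in percent, that were at least 2-fold higher in hypoxia over normoxia (left) and in hypoxia with oxamate over hypoxia (right), by gene type and by fragments in the higher library; n is the number of genes measured. In the band from 200 to under 1000 fragments the bars for hypoxia over normoxia stand at 34.3% for LINC genes and 6.38% for protein-coding genes.

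Position relative to protein-coding genes was described as a property that the choice of genes did not use. A start within 5 kb of an oppositely directed protein-coding start was found for 19 genes (divergent), 19 began within 10 kb past the end of a protein-coding gene on the same strand (downstream), 15 others overlapped a protein-coding gene and 77 lay apart. The classes were assigned in that order, so 7 of the 22 genes that overlap a protein-coding gene are counted as divergent or downstream. In hypoxia against normoxia 1 of 17 measured divergent genes was at least 2-fold higher, with a median log2 ratio of 0.43. Of 17 downstream genes 7 were higher (median 0.92), of 13 overlapping genes 5 (0.55) and of 68 genes apart 33 (0.89). The difference between these subsets was not tested. Each LINC gene was paired with the protein-coding gene of its class (the divergent or upstream gene), or with the nearest one where it overlapped a gene or lay apart, and for 6 of the 130 genes this was not the nearest gene. For the correlation over all classes together, the nearest protein-coding gene was used for every LINC gene instead. In 90 such pairs with both genes measured, the log2 ratios in hypoxia over normoxia correlated with Pearson r = 0.31 and Spearman rho = 0.24. The pairs share both libraries, their scaling and in part a locus. With the partner of the class, Pearson r was 0.46 over the 16 divergent pairs and -0.01 over the 15 downstream pairs. It was 0.37 over the 48 pairs apart and 0.31 over the 11 overlapping pairs. Spearman rho was 0.32 for divergent pairs, -0.05 for downstream, 0.32 for pairs apart and 0.25 for overlapping. In hypoxia with oxamate over hypoxia, Pearson r was 0.005 for divergent pairs and 0.32 for pairs apart. In hypoxia with oxamate over normoxia it was 0.42 and 0.44. Differences between these correlations were not tested.

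**Figure D4:**
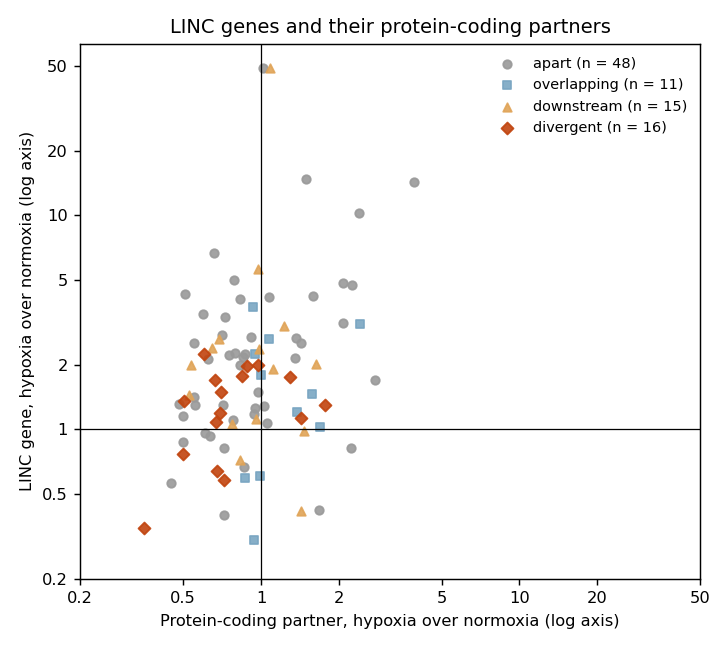
Ratio in hypoxia over normoxia of each LINC gene (vertical) against that of its protein-coding partner (horizontal), both on log axes, for the 90 pairs measured. The partner is the divergent or upstream gene, or the nearest gene where the LINC gene overlapped a gene or lay apart. Colour and shape give the position of the LINC gene. Most points lie above 1 on the vertical axis and spread to both sides of 1 on the horizontal axis, and the lowest divergent point is LINC02600 with ADRA2C.

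RefSeq promoter windows (GRCh38.p14, 250 bases before to 50 after the start) were at hand for 87 of the 130 genes, and for 58 of these the RefSeq start lay within 1 kb of the start in the tables. They were searched on both strands for ACGTG and GCGTG, the core letters of the hypoxia response element that HIF binds. At least 1 core was in 39.1% of the 87 windows, 34.7% of 1578 windows of all LINC genes and 48.4% of 27305 windows of all genes. ACGTG alone was in 26.4%, 18.8% and 21.6% of these windows, and GCGTG in 20.7%, 21.1% and 36.3%. The palindrome CACGTG, an E-box that holds ACGTG on both strands, was in 8.0% of the 87 windows, 5.0% of those of all LINC genes and 7.4% of all. TGATGNAA, the letters of an ATF4 response element, was in 3.4%, 6.1% and 3.7% in the same order. CAAAGTCCA, the letters of an HNF4A site, was in 0.0%, 0.4% and 0.4%. GC content had a median of 54.7% in the 87 windows, 47.7% in those of all LINC genes and 58.3% in all. Of the genes measured in hypoxia against normoxia, 10 of 32 with a core and 18 of 45 without were at least 2-fold higher.

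Promoters of 3 genes are shown, in hg38 coordinates, for the contrast between core letters and response. LINC02348, with the highest ratio, has no core in its window (chr15:101614290-101614589, minus strand). The RefSeq start of that window lies 192 bases inside the gene as placed in the tables, so much of the region before the gene was not searched. For LINC00886 and LINC02381 the starts lie 0 and 18 bases apart. The window of LINC02280, not shown, also holds no core, and its starts lie 0 bases apart. LINC02280 too was higher in hypoxia than in normoxia. LINC00886 (chr3:156817013-156817312, minus strand) holds 5 cores, and was chosen after its values were seen: it had 110 fragments in hypoxia with oxamate, 151 in hypoxia and 30 in normoxia and was 4.70-fold higher in hypoxia (3.16 to 7.21). LINC02381, with the lowest ratio of the 7 genes lower in hypoxia, has a CACGTG and a GCGTG in its window (chr12:54125821-54126120, plus strand). Capitals mark the cores, read on either strand, so that CACGT and CACGC are the same cores on the other strand.
LINC02348: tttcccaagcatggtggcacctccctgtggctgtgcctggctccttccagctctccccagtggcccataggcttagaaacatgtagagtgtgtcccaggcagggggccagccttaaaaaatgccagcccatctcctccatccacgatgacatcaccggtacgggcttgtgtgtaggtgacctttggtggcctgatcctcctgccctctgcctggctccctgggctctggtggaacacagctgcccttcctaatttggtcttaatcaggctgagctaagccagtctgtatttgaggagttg
LINC00886: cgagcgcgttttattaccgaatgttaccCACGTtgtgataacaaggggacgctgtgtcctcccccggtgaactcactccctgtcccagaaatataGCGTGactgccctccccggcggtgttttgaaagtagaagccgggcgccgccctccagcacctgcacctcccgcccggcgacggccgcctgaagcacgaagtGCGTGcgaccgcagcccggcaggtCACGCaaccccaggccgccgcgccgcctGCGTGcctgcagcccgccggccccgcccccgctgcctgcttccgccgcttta
LINC02381: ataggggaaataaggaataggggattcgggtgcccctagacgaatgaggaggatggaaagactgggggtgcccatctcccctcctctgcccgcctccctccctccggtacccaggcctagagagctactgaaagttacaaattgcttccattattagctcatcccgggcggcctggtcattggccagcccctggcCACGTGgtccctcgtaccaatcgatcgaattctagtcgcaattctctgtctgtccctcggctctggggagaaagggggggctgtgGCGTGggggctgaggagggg

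The second comparison asks which of these RNAs differ between the low-oxygen libraries with and without oxamate. In hypoxia with oxamate against hypoxia, 124 of the 130 genes were measured and the other 6 reached 50 fragments only in normoxia. Of the 124, 20 were at least 2-fold higher with oxamate (16.1%, against 5.92% of 13739 genes measured in the whole table) and 13 at least 2-fold lower (10.5%, against 5.07%), and 91 were neither. At a matched level the lower share was close to that of protein-coding genes, with 13.8% of LINC genes and 13.4% of protein-coding genes in the band under 200 fragments, and 5.26% and 4.90% in the band from 200 to under 1000. The median log2 ratio was 0.00 over LINC genes and -0.01 over all genes. With the whole interval past 2-fold, 13 were higher and 5 lower, where 3.57% and 2.23% of all measured genes were. Divergent genes had 1 higher and 3 lower of 17, and genes apart had 14 higher and 8 lower of 73.

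LINC01559 on chromosome 12 had 68 fragments in hypoxia with oxamate, 1 in hypoxia and 0 in normoxia. The ratio over hypoxia was 75.2 (13.1 to 3014), and against normoxia the lower limit of the interval was 18.55-fold (23.4-fold for the ratio to a floor of 3 fragments per library). LINC02119 on chromosome 5 had 74, 4 and 12 fragments in hypoxia with oxamate, hypoxia and normoxia and was 20.5-fold higher than in hypoxia (7.67 to 77.1). Both genes were well detected with oxamate and had 12 fragments or fewer in each of the other libraries.

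LINC00310, on the plus strand of chromosome 21 from 34157724 to 34190244, had 190 fragments in hypoxia with oxamate, 27 in hypoxia and 3 in normoxia. It was 7.79-fold higher with oxamate than in hypoxia (5.18 to 12.1). The genes beyond it on the same strand were higher with oxamate too. MRPS6, for a protein of the mitochondrial ribosome, lies 14.7 kb from it and had 3546 fragments in hypoxia with oxamate, 724 in hypoxia and 845 in normoxia, 5.42-fold higher than in hypoxia (5.00 to 5.88). SLC5A3, the sodium-coupled myo-inositol transporter gene, lies 51.5 kb from it and had 19082, 2609 and 1426 fragments in the same order, 8.09-fold higher (7.77 to 8.43). SLC5A3 lies within the MRPS6 locus on the same strand, and the table does not show how fragments were divided between those 2 genes. They were singled out after their values were seen.

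LINC01134, on chromosome 1 from 3900352 to 3917225, had 425 fragments in hypoxia with oxamate, 124 in hypoxia and 78 in normoxia, and was 3.79-fold higher with oxamate than in hypoxia (3.10 to 4.67). It starts 59 bases from C1orf174, which runs the other way. C1orf174 had 606, 843 and 1125 fragments in the same order and was 1.26-fold lower with oxamate (1.13 to 1.398), so this divergent pair differed in direction. LINC01687 on chromosome 21 had 285, 76 and 21 fragments in hypoxia with oxamate, hypoxia and normoxia, a ratio of 4.15 with oxamate over hypoxia (3.21 to 5.42). LINC02641 had 159, 41 and 11 and a ratio of 4.29 (3.03 to 6.21). LINC02082 had 79, 22 and 16 and a ratio of 3.97 (2.45 to 6.69). LINC01606 had 110, 36 and 9 and a ratio of 3.38 (2.30 to 5.07). LINC00920 had 62, 18 and 1 and a ratio of 3.81 (2.23 to 6.84). In these genes hypoxia stood between the other 2 libraries. LINC00920 begins 3.73 kb past the end of CDH5, the vascular endothelial cadherin gene, which had 0 fragments in both low-oxygen libraries and 2 in normoxia.

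LINC00511, reported at raised levels in many cancers, held the most fragments with oxamate among the genes higher than in hypoxia, after LINC00674. It had 1105 fragments in hypoxia with oxamate, 570 in hypoxia and 478 in normoxia, 2.15-fold higher with oxamate than in hypoxia (1.94 to 2.38), and hypoxia and normoxia differed by 1.11-fold (0.985 to 1.26).

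LINC00472, on chromosome 6 (71343427 to 71420745, minus strand), had 269 fragments in hypoxia with oxamate, 94 in hypoxia and 107 in normoxia. It was 3.17-fold higher with oxamate than in hypoxia (2.49 to 4.05), and the interval of hypoxia against normoxia spanned equality (1.22-fold lower in hypoxia, 0.915 to 1.62). The gene body contains the same-strand miRNA genes MIR30A and MIR30C2, and mature miRNAs were not measured by these libraries. Both mature 5-prime arms, taken from RefSeq (GRCh38.p14) and shown because they lie in a gene that was higher with oxamate, carry the same seed, bases 2 to 8, in capitals. They map to chr6:71403595-71403616 and chr6:71377003-71377025, minus strand.
hsa-miR-30a-5p: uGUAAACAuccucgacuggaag
hsa-miR-30c-5p: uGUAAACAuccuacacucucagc

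The genes lower with oxamate than in hypoxia were mostly at low counts. LINC02913 on chromosome 9 had 20 fragments in hypoxia with oxamate, 91 in hypoxia and 27 in normoxia. It was 4.11-fold lower with oxamate (2.51 to 7.05) and 3.15-fold higher in hypoxia than in normoxia (2.03 to 5.04), so its level with oxamate was near that of normoxia. LINC01963 on chromosome 2 had the largest counts, with 279, 731 and 247 fragments in hypoxia with oxamate, hypoxia and normoxia. It was 2.37-fold lower with oxamate (2.06 to 2.73) and 2.77-fold higher in hypoxia than in normoxia (2.39 to 3.21), and hypoxia with oxamate and normoxia differed by 1.17-fold (0.981 to 1.39). LINC01775 (14, 57 and 16 fragments) and LINC01348 (27, 91 and 17 fragments) also had hypoxia as the highest library. The steps into hypoxia and out of it share the hypoxia library, so counting error there moves both ratios.

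LINC01833 had 34 fragments in hypoxia with oxamate, 126 in hypoxia and 86 in normoxia and, with oxamate, was 3.35-fold lower than in hypoxia (2.28 to 5.05). It starts 2.50 kb from SIX3, a homeobox gene of forebrain and eye development that had at most 2 fragments in any library. LINC01091 on chromosome 4 had 33, 128 and 95 fragments and was 3.51-fold lower (2.38 to 5.31). LINC01806 had 30, 96 and 91 fragments and was 2.89-fold lower (1.90 to 4.52). LINC00654 had 66, 173 and 123 fragments and was 2.37-fold lower (1.77 to 3.20). LINC01786 had 15, 52 and 41 fragments and was 3.13-fold lower (1.74 to 5.99). In these 5 genes hypoxia with oxamate was the lowest library and hypoxia was near or above normoxia.

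**Figure D5:**
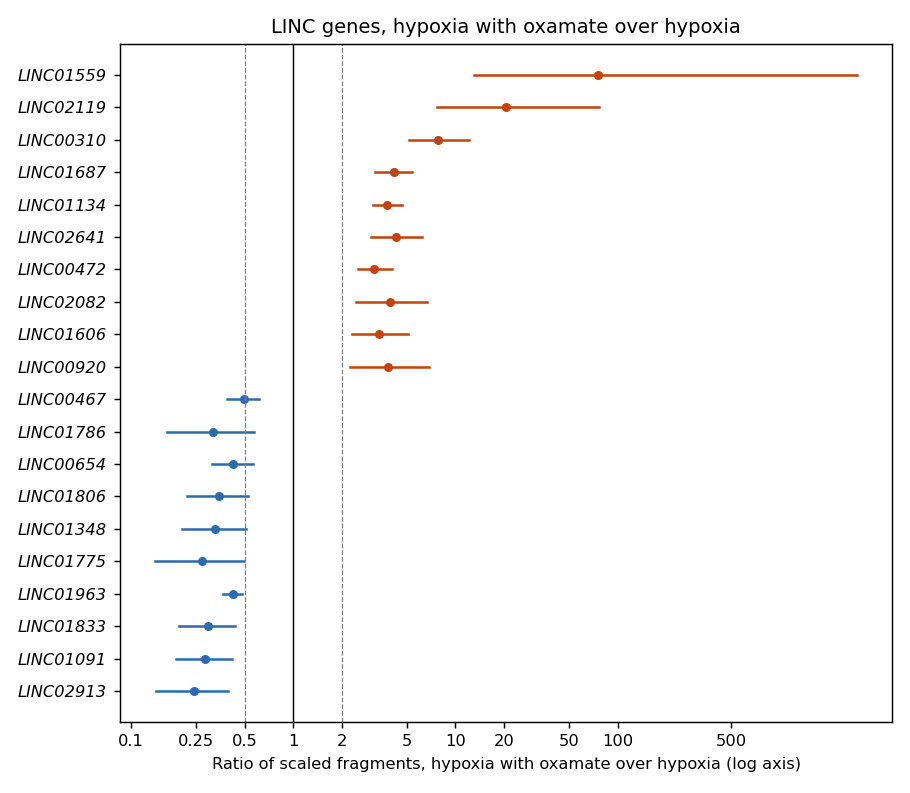
Ratio of scaled fragments in hypoxia with oxamate over hypoxia on a log axis, for the first 10 LINC genes each way that passed the 2-fold rule, ranked by the interval bound nearest to 1. Bars are 95% exact intervals for counting error only, and dashed lines mark 2-fold; the intervals of LINC01559 and LINC02119 are wide because hypoxia held 1 and 4 fragments.

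In hypoxia with oxamate against normoxia, 120 genes were measured and the other 10 reached 50 fragments only in hypoxia. Of the 120, 55 were at least 2-fold higher (45.8%, against 15.4% of 13597 genes measured in the whole table) and 14 at least 2-fold lower (11.7%, against 15.3%), and 51 were neither. Among 891 other long noncoding genes 40.2% were higher and 7.3% lower, so the higher share was near that of LINC genes. The median log2 ratio was 0.86 over LINC genes and -0.11 over all genes. With the whole interval past 2-fold, 39 were higher and 3 lower, where 11.3% and 10.8% of all measured genes were. This comparison shares a library with each of the others and is not independent of them. LINC02428 had the highest ratio over a detected normoxia level, 141 (24.8 to 5594), with 1 fragment in normoxia. LINC01239 on chromosome 9 had 125 fragments in hypoxia with oxamate, 47 in hypoxia and 3 in normoxia, 43.1-fold higher with oxamate than in normoxia (14.4 to 212).

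Beside some of these genes a protein-coding gene within 100 kb differed in the same direction. LINC01619 had 50 fragments in hypoxia with oxamate, 36 in hypoxia and 7 in normoxia and was 7.38-fold higher with oxamate than in normoxia (3.33 to 19.3). It overlaps BTG1, an antiproliferative gene with 10098, 9058 and 2474 fragments in the same order, 4.22-fold higher with oxamate than in normoxia (4.04 to 4.41). Because 13.8% of its exon bases lie in exons of BTG1, some of its fragments could be those of BTG1. LINC01277 had 51, 31 and 20 fragments in hypoxia with oxamate, hypoxia and normoxia and lies 9.60 kb from HIVEP2, a zinc-finger transcription factor gene with 3890, 1579 and 408. The ratios with oxamate over normoxia were 2.64 (1.54 to 4.67) and 9.86 (8.90 to 10.9). AIG1, the divergent gene 0.814 kb from LINC01277 and nearer than HIVEP2, was 1.13-fold lower (1.03 to 1.25). LINC01694 had 71, 104 and 174 fragments in the same order and was 2.37-fold lower with oxamate than in normoxia (1.79 to 3.17). SLC19A1, the reduced folate carrier gene 17.4 kb from it, had 468, 1031 and 2147 and was 4.44-fold lower (4.01 to 4.91). These neighbours were chosen after their values were seen.

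Lists of LINC genes with a reported role were mostly unmeasured in these cells. None of the 6 genes listed as small-protein loci was in the tables under its LINC name. Of 6 liver-associated genes 5 were in the tables and 2 were measured, LINC00261 and LINC01138. LINC01138, reported in hepatocellular carcinoma, had 302 fragments in hypoxia with oxamate, 229 in hypoxia and 101 in normoxia. It was 2.12-fold higher in hypoxia than in normoxia (1.67 to 2.71), and 57.4% of its best-matching transcript matches LINC00869. LINC01018, LINC01093 and LINC01554 had at most 6 fragments in any library. Of 17 cancer-associated genes 12 were in the tables and 6 were measured. In hypoxia over normoxia 2 were higher (LINC00324 and LINC01503) and 1 lower (LINC00665). Over measured LINC genes these shares were 40.0% and 6.09%, and over all measured genes 10.8% and 8.07%. In hypoxia with oxamate over hypoxia 1 was higher (LINC00511) and 1 lower (LINC00467, with 114, 256 and 328 fragments in hypoxia with oxamate, hypoxia and normoxia). The LINC shares there were 16.1% and 10.5%, and those of all measured genes 5.92% and 5.07%. In hypoxia with oxamate over normoxia 3 were higher and 2 lower, against 45.8% and 11.7% of LINC genes and 15.4% and 15.3% of all. Nothing is read from counts over 6 genes. LINC00324 had 79, 55 and 17 fragments and was 3.02-fold higher in hypoxia than in normoxia (1.73 to 5.56). LINC00662, with 291, 314 and 316, differed by at most 1.08-fold in any comparison. LINC00460, LINC00941 and LINC01116 had 0 fragments in every library.

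Genes of the nuclear decay machinery, which removes many long noncoding RNAs, had a lower median ratio at low oxygen than the whole table. Of 17 genes measured, 0 were at least 2-fold higher and 1 lower in hypoxia than in normoxia, with a median log2 ratio of -0.46, against -0.11 over all genes, and 1 of 17 is no more than the 8.07% lower among all measured genes. The lower gene was EXOSC2, a subunit of the RNA exosome, which had 525 fragments in hypoxia with oxamate, 874 in hypoxia and 1661 in normoxia. Between hypoxia with oxamate and hypoxia the median was -0.02 with 0 genes either way, and between hypoxia with oxamate and normoxia it was -0.61 with 5 lower, where 15.3% of all measured genes were lower. Not every member was lower: ZFC3H1, a subunit of the adaptor that hands polyadenylated nuclear RNA to the exosome, had 2621, 2319 and 1368 fragments in the same order and was 1.58-fold higher in hypoxia than in normoxia (1.48 to 1.70). Whether these levels bear on those of the LINC genes was not tested.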

How the data were processed

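Polyadenylated RNA of Hep3B cells was sequenced from 3 conditions with 1 library each. Libraries were made from 3 µg of RNA by poly(A) selection, fragmentation and random-hexamer priming, per the labels' protocols. Among the tools that the submitters' processing notes list, without saying what each did, are edgeR 3.22.5, featureCounts 1.5.0-p3, StringTie 1.3.3b and HISAT2 2.0.5, and the build listed is hg38. The settings used are not given here. The authors deposited 1 value per gene and library for 61533 genes, which is FPKM (fragments divided by exon length and a scaled library size) as read from the values. Its ratios gave the same median log2 ratios over all genes as the median of ratios, and not those of total fragments. Each value times exon length came out as an integer number of steps, with 100% of values above 0 within 0.01 of a whole number. No header names the unit. These whole numbers were used as fragments.

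Scaling used the 21987 genes with 10 or more fragments in all and was done by the trimmed mean of M values (30% of log ratios and 5% of mean levels trimmed). The factors were 1.01 in hypoxia with oxamate, 1.05 in hypoxia and 0.943 in normoxia. Computation used Python 3.11.15, numpy 2.4.6, pandas 2.3.3 and scipy 1.17.1. Medians of log2 ratios use a prior count of 0.5, and 0 fragments were set to a floor of 3 per library for a lower bound (0.120, 0.108 and 0.116 CPM in hypoxia with oxamate, hypoxia and normoxia). Intervals and floors cover counting error only, because PCR copies cannot be told from separate molecules here. The ratio and interval code was tested on simulated data.

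Gene types, exon overlap and positions came from GENCODE 29, whose identifiers matched 58356 genes. Near-identical copies were found with BLAST 2.17.0, counting matches of at least 95% identity and 200 bases to the single best other gene. The share given is that of the transcript with the largest match, not of all exon bases of the gene. The genes, gene lists and comparisons were chosen with earlier results of these data known. Genes named are the 10 each way per comparison that passed the size rule with the interval bound farthest from no difference, the 10 with the highest mean FPKM, listed genes with a reported role, genes with 0 fragments in a library, and those beside the threshold, and not every one is printed. Alternatives were other scalings, other minimum counts, the whole interval, another prior count, and leaving out genes that share exon bases, have a near-identical copy or overlap a protein-coding gene. The last 2 were added after seeing the data.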

Additional observations from a re-analysis of the deposited data

How the results depend on the processing

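Counts over the LINC genes stayed within 1.5 times the value given under every scaling tried (total fragments, median of ratios, the deposited FPKM, and the trimmed mean over protein-coding genes or with no filter), and no ratio of a named gene changed direction. The median of ratios and the deposited FPKM gave the same median log2 ratios over all genes, so they are not separate checks. Scaling by total fragments moved the median log2 ratio of all genes to 0.04 from -0.11 in hypoxia over normoxia, to -0.08 from -0.01 in hypoxia with oxamate over hypoxia and to -0.02 from -0.11 in hypoxia with oxamate over normoxia. Counts depended on the rule. With the whole interval past 2-fold, hypoxia over normoxia had 23 higher and 2 lower in place of 46 and 7, hypoxia with oxamate over hypoxia had 13 and 5 in place of 20 and 13, and hypoxia with oxamate over normoxia had 3 lower in place of 14. With a minimum of 10 fragments, which admits further LINC genes, these were 121 and 26, 75 and 63, and 140 and 44. With a minimum of 200 they were 15 and 4, 8 and 2, and 20 and 4. Without genes that share exon bases, 35 in place of 55 were higher in hypoxia with oxamate over normoxia, with fewer genes counted. Leaving out genes with a near-identical copy or in the body of a protein-coding gene, both tried after seeing the data, kept the counts within 1.5 times. No paired analysis was possible because each condition has 1 library, and leaving out a replicate was not possible for the same reason. Depth limits most of these genes, since 83 of the 130 had under 200 fragments in every library.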
